A study of Mus musculus with 3 samples.

Results

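The angiopoietin and Tie receptor genes described here are Angpt1, Angpt2, Tek, Tie1, Angptl1, Angptl2 and Angptl4. They were taken by symbol from the gene list of the deposited matrices, and all 7 were found among 32285 genes. Angpt1 and Angpt2 encode the angiopoietin ligands, Tek encodes their receptor TIE2, and Tie1 encodes the related receptor TIE1. The 3 angiopoietin-like genes encode secreted proteins of similar domain structure that do not bind TIE2.

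The study prepared single cells from femoral arteries of wild-type (WT) male mice aged 8 weeks. One group had a Sham operation, for which no harvest time is given, and the other groups were taken 2 days (D2) and 7 days (D7) after FAI, a femoral artery injury made with a wire. DAPI staining and sorting kept living singlets, and cells of 6 mice were pooled into 1 Chromium 3′ v3 library per group. With 1 library per group no difference between groups can be tested, and every interval given here is a 95% interval for counting error only.

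In the vessel wall, angiopoietin-1 made by perivascular cells activates TIE2 on endothelial cells, which steadies the endothelial barrier and keeps the transcription factor FOXO1 out of the nucleus. Angiopoietin-2, released by activated endothelial cells, can act as a weak agonist or as an antagonist of TIE2, and TIE1 forms complexes with TIE2 and shapes its signal. ANGPTL4 inhibits lipoprotein lipase, the enzyme that frees fatty acids from circulating triglycerides, and its gene responds to PPAR transcription factors, to hypoxia and to glucocorticoids.

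Levels are UMIs (unique molecular identifiers) of a gene scaled to 1000000 UMIs of a class in a library (CPM). They count 3′ ends and are not compared between genes. Of 7757 barcodes in Sham, 11690 in D2 and 11574 in D7, 7329, 10988 and 10852 cells passed the filters and doublet removal, respectively. Median depth was 4077, 6625.5 and 6721.5 UMIs per cell. Between 16 and 26 cell barcodes were shared by each pair of libraries. Cells were clustered without the 7 genes and named by markers as fibroblast-like (3842 Sham, 112 D2 and 3097 D7 cells), blood endothelial-like (465, 94 and 383), lymphatic endothelial-like (315, 30 and 136) and mural-like, which joins smooth muscle and pericytes (150, 16 and 301), beside immune, Schwann-like and adipocyte-like classes. Smooth muscle markers, which define the arterial wall, summed to 30852 CPM in the 150 Sham mural-like cells, and neutrophil-like and monocyte or macrophage-like cells made up 41.0% and 38.8% of the D2 library. Fibroblast-like cells had a median of 1806.5 UMIs in Sham, 8437 in D2 and 11847 in D7, so depth moved with the group, and its part in the results was not tested.

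A fibroblast-like subcluster of shallow cells (45.1% of the class in Sham, 5.42% at D7) and the subclusters with Pi16 and Dpp4 or Inmt and Penk held most Sham fibroblast-like cells, whereas those with Sfrp4 and Mmp3, Tnn and Acan or Spp1 and Timp1 held most at D7. Every fibroblast-like comparison below therefore sets different subclusters against each other. The same holds for mural-like cells, where a pericyte-like subcluster with Cd36 and Vstm4 was 11.3% of the class in Sham and 34.2% at D7. Summed smooth muscle markers in mural-like cells were 30852 CPM in Sham, 9344 in D2 and 12794 in D7, and summed fibroblast markers 5054, 6660 and 10914. The part of these differences in the mural-like results was not tested. B-like cells, which should lack most of these genes, give the background level. That level itself differed between Sham, D2 and D7, at 4.18, 11.1 and 9.83 CPM for Angpt2 and 10.0, 1.11 and 1.70 for Angpt1.

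**Figure D1:**
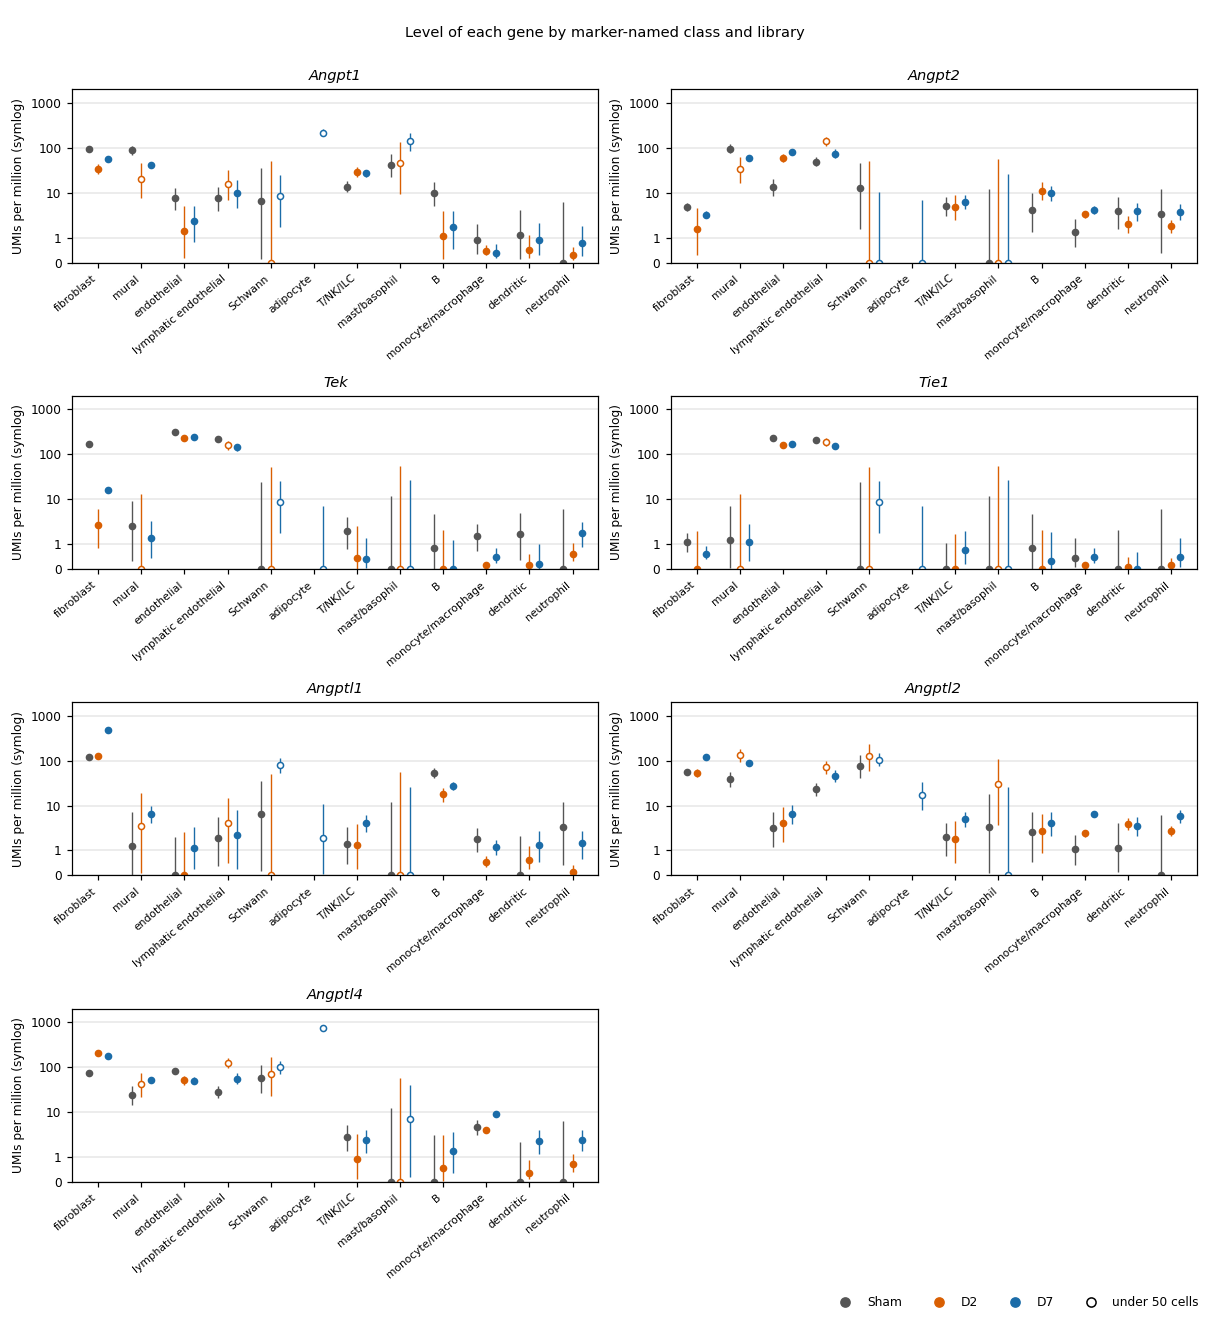
Level of each of the 7 genes (vertical axis, CPM, linear below 1 and logarithmic above) in 12 marker-named classes (horizontal axis) of the Sham, D2 and D7 libraries, with counting-error bars; open points stand for classes of under 50 cells. Tie1 sits high in both endothelial classes, Tek also in Sham fibroblast-like cells at 172, and Angptl1 in fibroblast-like cells at 119 in Sham and 478 in D7.

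Angpt1, the agonist ligand (gene ENSMUSG00000022309, mm10 chromosome 15, 42424723 to 42676977, minus strand), had 3722 of its 4635 UMIs in fibroblast-like cells. Its level there was 93.2 CPM in Sham, 34.5 in D2 and 57.4 in D7. The D2 level was 2.70-fold lower than Sham (interval 2.11 to 3.51, 66 against 1496 UMIs) and the D7 level 1.62-fold lower (1.52 to 1.74). Mural-like cells gave 88.0 in Sham and 41.4 in D7, 2.13-fold lower (1.58 to 2.84), a ratio that was 0.731 when each cell's rate was averaged instead. The 16 D2 mural-like cells held 6 UMIs. Fibroblast-like cells thus had less Angpt1 per UMI in both injured libraries, and mural-like cells in D7, with the differences in make-up given above. After thinning to 1000 UMIs, an Angpt1 UMI was found in 3.79% of Sham mural-like cells (1.24% to 8.62%) and 4.53% of D7 ones (2.43% to 7.62%). The mural-like difference was thus not seen in the share of cells. In fibroblast-like cells the thinned shares were 7.78% in Sham, 5.77% in D2 and 5.83% in D7.

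Among the fibroblast-like cells Angpt1 was highest in a resting-like subcluster led by Inmt and Penk, with 192 CPM in 822 Sham cells (interval 179 to 205) and 152 in 46 D7 cells (104 to 214). The second resting-like subcluster, led by Fmo2 and C7, had 111 in 207 Sham cells. The progenitor-like subcluster marked by Pi16 and Dpp4 had 52.4 in Sham and 25.9 in D7, and the matrix-rich subcluster with Tnn and Acan, of 965 D7 cells and none in Sham, had 50.1. The Inmt and Penk cells were thus the high ones in both libraries, while at D7 the 19 Fmo2 and C7 cells, at 64.4, did not stand above the 65.7 of the Sfrp4 and Mmp3 subcluster. The resting-like subclusters made up 21.4% and 5.39% of Sham fibroblast-like cells but 1.49% and 0.613% at D7.

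Angpt1 was also counted outside the stroma. In T, NK and innate lymphoid-like cells it was 13.8 in Sham, 29.4 in D2 and 27.4 in D7, with D2 2.13-fold above Sham (1.45 to 3.15), while B-like cells had 10.0, 1.11 and 1.70. Of all genes tested in that lymphoid class, 4.11% were at least 2-fold higher in D2 than in Sham and 3.62% lower, and median-of-ratios scaling would shift all genes of this pair by 0.13 on the log2 scale, which puts Angpt1 close to the 2-fold limit. In D2, 3 cells held 28 of its 66 UMIs in this class. After thinning to 1000 UMIs the share of cells with an Angpt1 UMI was 1.41% in Sham (0.567% to 2.87%), 1.87% in D2 (0.689% to 4.02%) and 3.39% in D7 (2.30% to 4.80%), so Sham and D2 could not be told apart by it. Mast or basophil-like cells had 42.2 in Sham from 13 UMIs in 74 cells and 142 in D7 from 20 UMIs in 34 cells. In D7, 3 of these cells held 16 of the 20 UMIs. The 30 adipocyte-like cells, all from D7, had 219 (180 to 263). An antisense transcript, Gm17473, overlaps the start of Angpt1. Strand handling in the counting is not given in the sources used here, so for this and the opposite-strand genes named below the reads cannot be told apart.

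Angpt2 (ENSMUSG00000031465, chromosome 8, 18690263 to 18741562, minus strand) was low in Sham blood endothelial-like cells, at 13.4 CPM (25 UMIs in 465 cells), and higher after injury, at 59.9 in D2 (86 UMIs in 94 cells) and 79.3 in D7 (206 UMIs in 383 cells). D2 was 4.45-fold above Sham (2.82 to 7.26) and D7 5.90-fold (3.88 to 9.33), and the Sham interval (8.70 to 19.9) lies below those of D2 (47.9 to 74.0) and D7 (68.8 to 90.9). The injured libraries were closer to each other, with D7 at 1.32 times D2 (1.02 to 1.72). After thinning to 1000 UMIs, an Angpt2 UMI was found in 1.92% of Sham blood endothelial-like cells (0.834% to 3.75%). The thinned shares were 6.67% in D2 (2.49% to 13.9%) and 4.41% in D7 (2.54% to 7.06%). These intervals overlap that of Sham, so the share of cells separated the libraries less clearly than the level. Angpt2 was the only one of the 7 genes at least 2-fold higher in blood endothelial-like cells at either day, where 4 could be judged and 11.2% (D2) and 7.1% (D7) of all genes tested were that much higher, with 10.2% and 6.13% lower. None was 2-fold apart between D7 and D2 (3.8% and 2.38% of all genes).

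The Angpt2 level differed between blood endothelial-like subclusters. In the venous-like subcluster led by Sele, Ackr1 and Selp, adhesion and chemokine-binding genes of activated venules, no Angpt2 UMI was counted in 32 Sham cells (3 counts would be 26.5 CPM), against 117 in 10 D2 cells and 133 in 78 D7 cells (104 to 167). A subcluster led by Top2a, Mki67 and Prnd, which had no subtype name, had 36.3 in 12 Sham cells, 69.2 in 36 D2 cells and 109 in 90 D7 cells. The capillary-like subcluster led by Car4 and Timp4 had 22.1 in Sham and 24.8 in D7, and the other venous-like subcluster with Vwf had 7.88 in Sham, 55.0 in D2 and 7.77 in D7. Several of these levels rest on few UMIs. For scale, 3 counts would be 11.8 CPM in the Sham and 7.77 in the D7 cells with Vwf. They would be 27.2 in the Sham cells with Top2a and 18.6 in the capillary-like D7 cells. The make-up of the class differed as well: the capillary-like subcluster was 40% of Sham, 8.51% of D2 and 9.4% of D7 blood endothelial-like cells, and the proliferating one 2.58%, 38.3% and 23.5%.

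Angpt2 lies within Mcph1, a gene on the opposite strand. Mcph1 was 12.4, 29.3 and 30.8 CPM in the same blood endothelial-like sums, so both genes were higher after injury, and in mural-like cells Mcph1 was higher in D7 (24.4 against 6.28) where Angpt2 was lower. Mcph1 was also counted in B-like cells, at 21.7, 34.9 and 25.8. Neutrophil markers moved with the injured libraries in the blood endothelial-like sums, at 40.9, 1609 and 332 CPM, and so did smooth muscle markers, at 199, 439 and 540 (11, 6 and 10 of 12 detected). Their part in the Angpt2 values was not tested. In D2, 3 blood endothelial-like cells held 38 of the 86 Angpt2 UMIs of the class. Neutrophil-like cells themselves held Angpt2 at 1.84 CPM in D2, and the 9 D2 blood endothelial-like cells led by S100a8 held none.

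Lymphatic endothelial-like cells had Angpt2 at 49.5 in Sham, 140 in the 30 D2 cells (109 to 176) and 75.0 in D7, and D7 was 1.51-fold above Sham (1.08 to 2.12). Of the 70 lymphatic UMIs in D2, 42 came from 3 cells. Mural-like cells had 96.8 in Sham, 34.5 in D2 from 10 UMIs in 16 cells, and 59.4 in D7, 1.63-fold below Sham (1.24 to 2.12). In the largest pericyte-like subcluster, led by Cd36 and Vstm4, the level was 144 in 17 Sham cells from 11 UMIs and 96.9 in 103 D7 cells. In Sham, then, Angpt2 was higher in mural-like than in blood endothelial-like cells. At D7 the levels, 59.4 (51.7 to 67.9) and 79.3 (68.8 to 90.9), stood in the opposite order. There 3 blood endothelial-like cells held 44 of the 206 UMIs. The share of D7 cells with an Angpt2 UMI did not turn in this way. After thinning to 1000 UMIs it was 5.57% in mural-like cells (3.22% to 8.90%) and 4.41% in blood endothelial-like cells (2.54% to 7.06%). Monocyte or macrophage-like cells stayed at 1.37, 3.30 and 4.19, under the 4.18, 11.1 and 9.83 of B-like cells, a level read here as background.

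**Figure D2:**
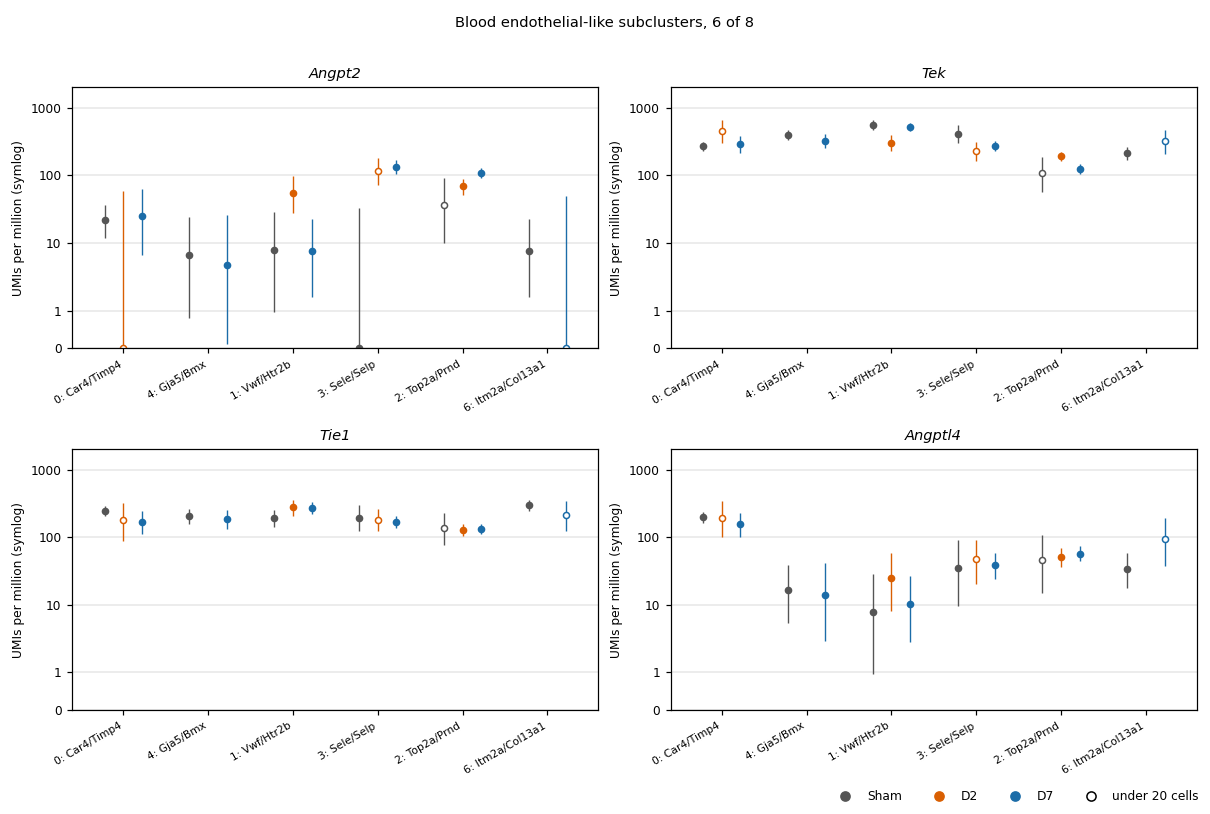
Level of Angpt2, Tek, Tie1 and Angptl4 (vertical axis, CPM, linear below 1 and logarithmic above) in 6 of 8 blood endothelial-like subclusters (horizontal axis, number and leading genes) of the 3 libraries, with counting-error bars; open points have under 20 cells and groups under 5 cells are not drawn. Angpt2 goes from 0 in Sham to 133 at D7 in the Sele and Selp subcluster, while Tie1 stays between 128 and 295 in every group drawn.

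The receptor genes lie on the same chromosome, Tek (ENSMUSG00000006386) at chromosome 4, 94739289 to 94874976, plus strand, and Tie1 (ENSMUSG00000033191) at 118471191 to 118490061, minus strand. Their start regions are shown because both genes were counted in endothelial-like cells and only Tek in fibroblast-like cells. The sequences are from RefSeq on GRCm38.p6, 250 bases before to 50 after the annotated start, read 5′ to 3′ on the gene's strand, with capitals for GGAA or its reverse complement TTCC, the core of the sites that ETS transcription factors bind. For Tie1 the RefSeq start lies within the gene as positioned above, so most of the bases before it fall inside the gene by that annotation.
Tek (chr4:94739039-94739338, plus strand): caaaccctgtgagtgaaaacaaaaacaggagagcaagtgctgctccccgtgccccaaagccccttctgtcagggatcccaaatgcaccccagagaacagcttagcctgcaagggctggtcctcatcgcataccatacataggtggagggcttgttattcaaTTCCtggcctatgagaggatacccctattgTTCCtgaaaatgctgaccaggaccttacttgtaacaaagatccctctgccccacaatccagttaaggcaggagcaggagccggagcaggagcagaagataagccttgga
Tie1 (chr4:118489800-118490099, minus strand): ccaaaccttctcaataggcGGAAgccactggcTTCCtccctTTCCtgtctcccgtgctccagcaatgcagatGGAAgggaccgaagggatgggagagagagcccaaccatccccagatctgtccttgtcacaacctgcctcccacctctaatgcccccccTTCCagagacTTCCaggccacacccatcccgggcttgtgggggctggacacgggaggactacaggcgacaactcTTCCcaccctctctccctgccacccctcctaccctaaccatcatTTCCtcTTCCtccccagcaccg
The Tek window holds 2 such matches and the Tie1 window 9. Of 32851 mouse windows of this length, 84.6% hold at least 2 and 1.59% at least 9, with a median of 3. A match describes these letters and says nothing of what binds there. Windows were present for 4 of the 7 genes.

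Tie1, long treated as an orphan receptor, was counted in endothelial-like cells and hardly elsewhere. Blood endothelial-like cells had 227 CPM in Sham (422 UMIs), 162 in D2 (232 UMIs) and 172 in D7 (446 UMIs). Lymphatic endothelial-like cells had 206 in Sham, 191 in D2 and 152 in D7. Fibroblast-like cells had 1.12, 0 and 0.611, and B-like cells 0.836, 0 and 0.339, which is the background level. Blood endothelial-like Tie1 was 1.40-fold lower in D2 than in Sham (1.19 to 1.66) and 1.32-fold lower in D7 (1.15 to 1.51), so the injured libraries were below Sham by less than 2-fold and did not separate from each other (D7 over D2 1.06, 0.905 to 1.25). Over the subclusters with at least 10 cells in a library it ranged from 128 in the Top2a subcluster at D2 to 295 in the Itm2a subcluster of Sham.

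Tek had a wider range of cells. In blood endothelial-like cells it was 316 CPM in Sham, 227 in D2 and 247 in D7, so D2 was 1.39-fold lower than Sham (1.21 to 1.60) and D7 1.28-fold lower (1.14 to 1.43). Averaging each cell's rate gave a D7 ratio of 0.992, so that difference was not seen per cell. Lymphatic endothelial-like cells had 215, 159 and 142, with D7 1.51-fold below Sham (1.23 to 1.87). The share of blood endothelial-like cells with a Tek UMI, after each cell was thinned to 1000 UMIs, was 24.3% of 416 Sham cells, 24.4% of 90 D2 cells and 25.3% of 363 D7 cells, against no cell of 279, 363 and 759 B-like cells. Before thinning the shares were 57.8%, 84.0% and 68.7%, at median depths of 3430, 12113 and 5267 UMIs. At equal depth, then, the 3 libraries gave nearly the same share of Tek-positive blood endothelial-like cells, with intervals that overlap (20.2% to 28.7%, 16.0% to 34.6% and 20.9% to 30.1%).

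Within blood endothelial-like cells of Sham and D7 Tek was highest in the venous-like subcluster with Vwf, at 551 in Sham (464 to 651) and 518 in D7, with 305 in D2. The arterial-like subcluster, led by Bmx and Gja5 among others, had 400 in Sham and 329 in D7, and the capillary-like one 273 and 291. In D2 the capillary-like subcluster had 452, from 28 UMIs in 8 cells (300 to 653). The Sele and Selp subcluster had 416 in 32 Sham cells and 271 in 78 D7 cells, the reverse of its Angpt2 values. The proliferating subcluster was low, at 109 in Sham, 193 in D2 and 125 in D7.

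Most Tek UMIs of the Sham library lay outside endothelial-like cells. Fibroblast-like cells held 2766 of 3773 Tek UMIs in Sham (73.3%), against 15.6% in blood endothelial-like cells. The fibroblast-like level was 172 CPM in Sham (166 to 179), 2.61 in D2 (5 UMIs in 112 cells) and 15.8 in D7 (593 UMIs in 3097 cells). D2 was 65.9-fold lower than Sham (28.2 to 203) and D7 10.9-fold lower (ratio 0.0914, 0.0835 to 0.0999). After thinning to 1000 UMIs, 8.29% of 2546 Sham cells had a Tek UMI, 0.962% of 104 D2 cells and 1.19% of 2948 D7 cells, with 1296, 8 and 149 shallower cells left out. When each cell's own rate was averaged, so that shallow cells weigh as much as deep ones, the D2 and D7 ratios to Sham were 0.169 and 0.184 in place of 0.0152 and 0.0914.

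In Sham, 2455 of the 2766 fibroblast-like Tek UMIs sat in 1 subcluster. These progenitor-like fibroblasts, led by Limch1, Opcml, Pla1a and Dpp4 with Tek itself among the leading genes although it was kept out of the clustering, had 311 CPM in 860 Sham cells (299 to 323) and 321 in 35 D7 cells (267 to 383), a ratio of 1.03 (0.855 to 1.24). Opcml and Smpd3, also leading genes, belong to the resting markers, and no D2 cell fell in it. It held 65.1% of all Tek UMIs of the Sham library and 8.83% at D7, and it was 22.4% of fibroblast-like cells in Sham and 1.13% at D7. The Tek level of cells placed in this subcluster was thus alike in Sham and D7, while their share of the class differed. Placement rests on expression, so a change of Tek in cells that had changed state was not tested. The Sfrp4 and Mmp3 subcluster at D7 also held Pi16, at 485 CPM, and Dpp4, at 43.9. Elsewhere among fibroblast-like cells Tek was 37.3 in the Inmt and Penk subcluster of Sham, 28.8 in the Sfrp4 and Mmp3 subcluster of D7, which held 332 of the 593 D7 UMIs, and 2.69 in the D7 matrix-rich subcluster. A subcluster of 15 Sham cells led by the B-cell genes Igkc and Cd79a had 621 (484 to 785), with 69 of its 70 Tek UMIs in 3 cells.

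Endothelial markers summed to 511, 228 and 312 CPM in fibroblast-like cells (12, 8 and 12 of 12 markers detected), in the direction of Tek. In Sham, Cdh5 and Pecam1 gave 2.62 and 7.35 of that sum, so other markers carried most of it. Only 4 of the 12 were checked in the progenitor-like subcluster, and the part of endothelial RNA in the Tek values was not tested. In the 860 Sham cells of the progenitor-like subcluster Pi16 was 2637 and Pdgfra 369 CPM, whereas the endothelial genes Cdh5, Cldn5, Egfl7 and Pecam1 were 0.886, 0.633, 1.39 and 3.80. In Sham fibroblast-like cells thinned to 2000 UMIs, Dpp4 was found in 42.5% of 351 cells with a Tek UMI (37.2% to 47.8%) and in 14.0% of 1494 cells without one (12.3% to 15.9%). Pi16 was found in 77.8% and 43.0% of the same cells. Cdh5 was found in 0.285% and 0.469%, and Tie1 in none of the 351 (which allows up to 1.05%) and in 0.134%. At D7 Dpp4 was found in 27.4% of 62 cells with Tek and in 1.92% of 2652 without, and Pi16 in 82.3% and 22.8%. Cdh5 was found in 1 of the 62 D7 cells with Tek (1.61%) against 0.302%, and Tie1 in 1 of the 62 against 0.0754%.

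**Figure D3:**
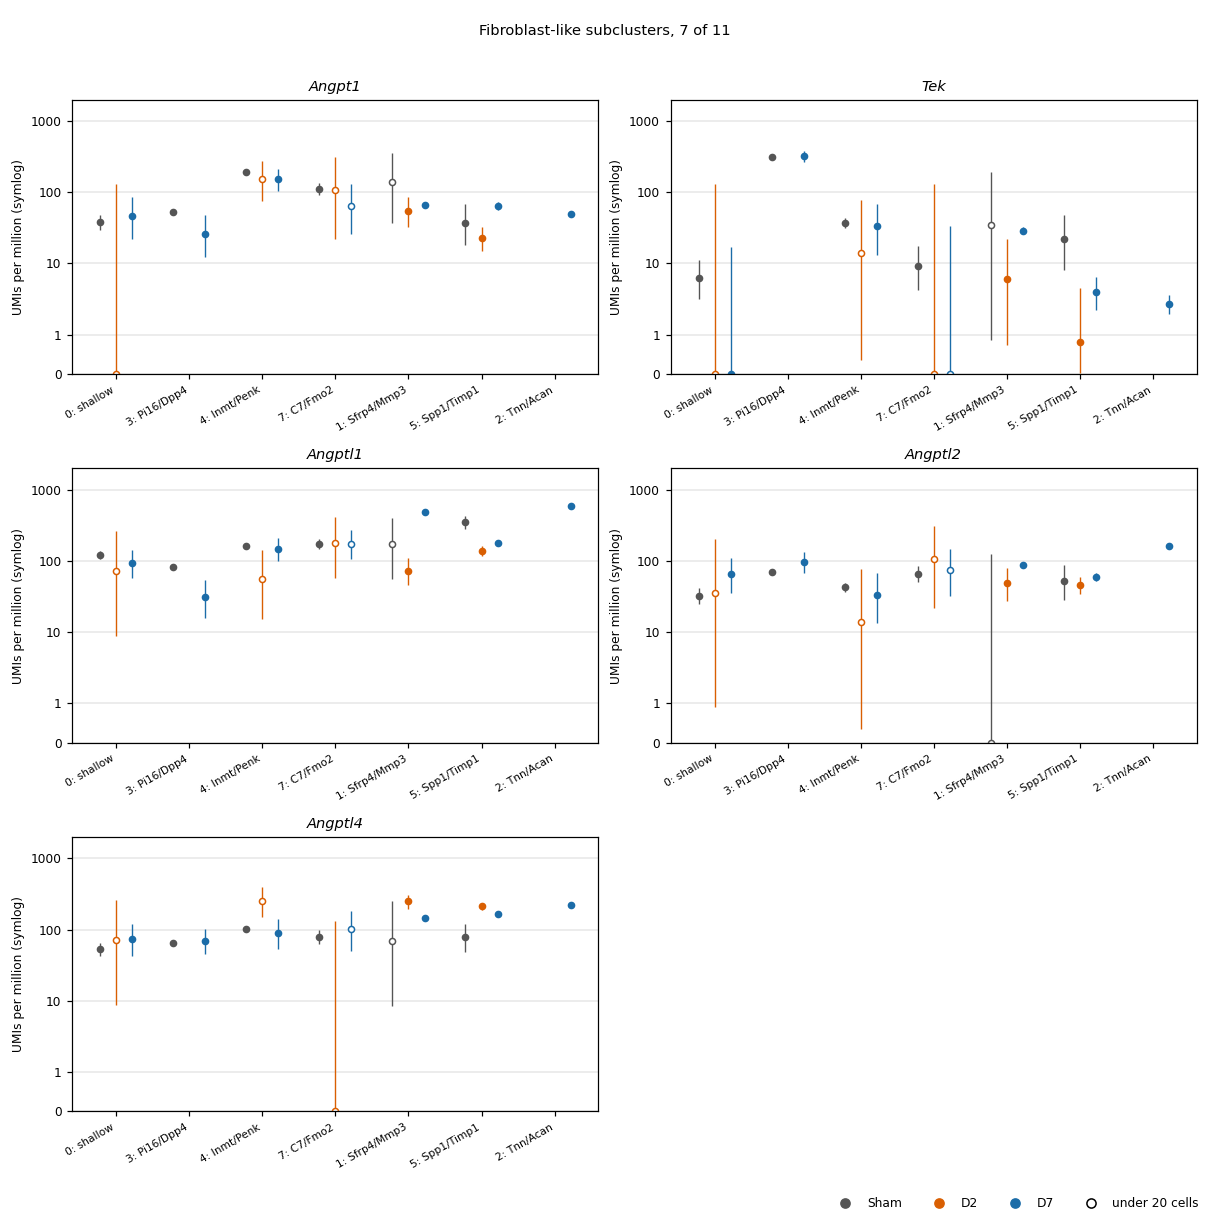
Level of Angpt1, Tek, Angptl1, Angptl2 and Angptl4 (vertical axis, CPM, linear below 1 and logarithmic above) in 7 of 11 fibroblast-like subclusters (horizontal axis, number and leading or marker genes) of the 3 libraries, with counting-error bars; open points have under 20 cells and groups under 5 cells are not drawn. Among the subclusters drawn Tek is highest in the Pi16 and Dpp4 one, at 311 in Sham and 321 in D7, and Angptl1 reaches 482 and 600 in the 2 subclusters that hold most D7 cells.

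Counted by the size rule, a gene was called apart when its level plus 1 CPM differed at least 2-fold and the higher library had at least 10 CPM and 10 UMIs. In fibroblast-like cells at D2, 5 of the 7 genes could be judged, of which 1 was higher and 2 were lower than in Sham, where 12.4% of all genes tested were higher and 13.7% lower. At D7, 3 were higher and 1 was lower (6.39% and 8.12% of all genes). From D2 to D7, 3 were higher and none lower (6.69% and 6.1%). In mural-like cells, 2 of 4 judged were higher and 1 lower at D7 than in Sham (12.1% and 8.21%), and none of 5 in lymphatic endothelial-like cells (6.63% and 5.08%). None of the 7 passed the abundance filter in monocyte or macrophage-like, dendritic-like or neutrophil-like cells in any pair of libraries.

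**Figure D4:**
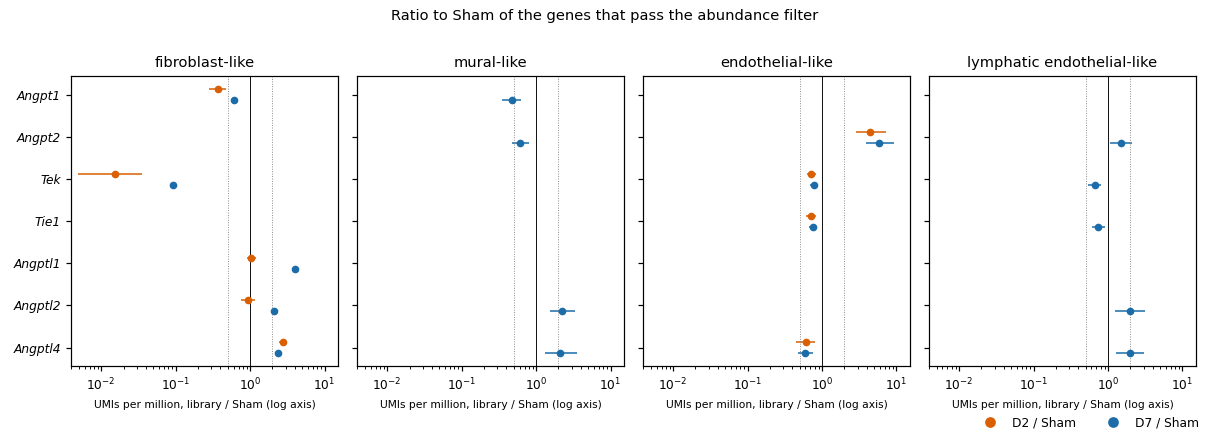
Ratio of each gene's level in D2 or D7 to that in Sham (horizontal logarithmic axis, with the line at 1 and dotted lines at 2-fold either way) in 4 classes, with 95% counting intervals, for genes that passed the abundance filter. Angpt2 lies at 4.45 and 5.90 in blood endothelial-like cells, Tek at 0.0152 and 0.0914 in fibroblast-like cells, and the 3 angiopoietin-like genes lie above 2 in fibroblast-like cells at D7.

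Angptl1 (ENSMUSG00000033544, chromosome 1, 156838562 to 156861078, plus strand), described as a factor that restrains vessel growth, had 20146 of its 20622 UMIs in fibroblast-like cells. Its level there was 119 CPM in Sham, 124 in D2 and 478 in D7. The D2 ratio to Sham was 1.04 (0.908 to 1.19), and 3 of the 112 D2 cells held 101 of the 237 UMIs. D7 was 4.03-fold above Sham (3.84 to 4.22). Most of the D7 UMIs lay in subclusters with few Sham cells: 600 in the 965 cells with Tnn and Acan, which Sham lacked, and 482 in the 1171 cells with Sfrp4 and Mmp3, which numbered 15 in Sham. In the Inmt and Penk subcluster the level was 162 in Sham and 147 in D7, and in the progenitor-like one it was 83.0 and 31.1. The Fmo2 and C7 subcluster had 173 and 175, and the Spp1 and Timp1 subcluster 351 in 33 Sham cells and 181 in 299 D7 cells. Of the subclusters named here with 20 or more Sham cells, none had a D7 level above its Sham interval. The shallow subcluster and those led by genes of other cells also held Sham cells and were not compared here. The Sfrp4 and Mmp3 subcluster had 172 in Sham from 5 UMIs.

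B-like cells had Angptl1 at 53.5, 17.7 and 27.5 CPM. The gene lies within Ralgps2 on the opposite strand, and Ralgps2 was 883, 314 and 395 in the same cells, so the B-like counts cannot be told apart from its reads. Ralgps2 in fibroblast-like cells was 22.6, 16.7 and 11.5, in the other direction to Angptl1. Schwann-like cells had 6.44 of Angptl1 in 50 Sham cells and 80.0 in 40 D7 cells (53.2 to 116), where 3 cells held 24 of 28 UMIs.

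Angptl2 (ENSMUSG00000004105, chromosome 2, 33216069 to 33247717, plus strand), a secreted protein tied to inflammation of stromal tissue, was 56.1 in Sham, 52.3 in D2 and 119 in D7 fibroblast-like cells. D7 was 2.13-fold above Sham (1.98 to 2.29) and D2 was not apart from it (ratio 0.932, 0.751 to 1.15). The matrix-rich D7 subcluster was highest at 161 (155 to 167). Mural-like cells had 39.0 in Sham and 88.0 in D7, 2.26-fold higher (1.56 to 3.38), with 131 in the 16 D2 cells, of which 3 cells held 26 of the 38 UMIs. Fibroblast markers in mural-like sums moved in the same direction, as given above. The largest pericyte-like subcluster had the opposite order, with 235 in 17 Sham cells and 113 in 103 D7 cells. Lymphatic endothelial-like cells had 23.5, 71.8 and 46.3, and Schwann-like cells 77.3, 126 and 106, the latter from 12, 9 and 37 UMIs. Blood endothelial-like cells, at 3.23 to 6.55, were near the B-like range of 2.51 to 4.07. The gene lies within Ralgps1, on the opposite strand, which was 13.7, 4.71 and 6.53 in fibroblast-like cells.

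Angptl4 (ENSMUSG00000002289, chromosome 17, 33773750 to 33781830, minus strand) was higher in fibroblast-like cells of both injured libraries. Its level was 74.5 CPM in Sham, 206 in D2 and 178 in D7, which is 2.76-fold (2.46 to 3.10) and 2.39-fold (2.25 to 2.55) above Sham. It was the only one of the 7 higher at D2 in these cells. The D2 cells of the Sfrp4 and Mmp3 and of the Spp1 and Timp1 subclusters had 249 and 212, and the same subclusters at D7 had 148 and 164. The Inmt and Penk subcluster had 101 in Sham and 90.0 in D7.

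Blood endothelial-like cells had less Angptl4 per UMI after injury, with 82.8 in Sham, 50.1 in D2 and 49.7 in D7. The D7 level was 1.67-fold lower (1.31 to 2.12, or a ratio of 0.416 over single cells). After thinning to 1000 UMIs, 8.17% of Sham cells (5.73% to 11.2%) and 3.58% of D7 cells (1.92% to 6.05%) had an Angptl4 UMI. In D2 the thinned share was 13.3% (7.08% to 22.1%), so the D2 difference was not seen in the share of cells. The capillary-like subcluster had the highest level, with 196 in Sham, 194 in D2 and 155 in D7, while its share of the class went from 40% to 8.51% and 9.4%. Lymphatic endothelial-like cells had 27.9, 124 and 55.1, and mural-like cells 23.9 in Sham and 50.5 in D7, 2.12-fold higher (1.32 to 3.60), where fibroblast markers were also higher. The 30 adipocyte-like D7 cells had 741 (669 to 818). B-like cells had 0, 0.554 and 1.36.

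Summed over whole libraries, all 7 genes were lowest in D2, the library made up mostly of neutrophil-like and monocyte or macrophage-like cells. The share of all genes that were lowest in D2 was not counted, so the 7 are not set apart by this. Tek was 99.3, 4.81 and 14.8 CPM and Angpt1 45.7, 2.12 and 28.4. Angptl1, at 52.8, 3.46 and 192, and Angptl2, at 26.8, 4.73 and 55.4, were above Sham at D7. These sums mix the level within a class with its number of cells.

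Proteins that act with TIE2 were followed as a list of 20. In blood endothelial-like cells 14 could be judged, of which 2 were higher and 1 lower at D2 than in Sham, with a median log2 ratio of 0.23 against 0.02 over 9470 genes, of which 11.2% were higher and 10.2% lower. Ptprb, the phosphatase VE-PTP that dephosphorylates TIE2, was 1534 in Sham, 649 in D2 (2.36-fold lower) and 886 in D7 (1.73-fold lower). Itga5, the integrin chain that angiopoietin-2 can bind, was 65.1, 178 and 142, or 2.73-fold and 2.18-fold above Sham. At D7, 1 was higher and none lower (median 0.13 against 0.05), where 7.1% of genes were higher and 6.13% lower. In fibroblast-like cells 2 of 16 were higher and 5 lower at D2 (median -0.17 against -0.02), where 12.4% of genes were higher and 13.7% lower. None was higher and 3 lower at D7 (-0.15 against -0.07), where 6.39% and 8.12% of genes were. Among those lower was Foxo1, the transcription factor downstream of TIE2, at 134 in Sham, 36.1 in D2 and 42.5 in D7. Svep1, a matrix protein reported to bind TIE1, was 187, 83.7 and 123 there. Foxo1 in blood endothelial-like cells went the other way at D7, with 143 in Sham and 222 in D7, 1.56-fold higher (1.35 to 1.81). In lymphatic endothelial-like cells, compared for D7 and Sham only, none of 14 was 2-fold apart, where 6.63% of all genes were higher and 5.08% lower.

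Genes of tip cells and sprouting, 14 in number, divided by day in blood endothelial-like cells. At D2, 4 of 13 judged were higher and 7 lower than in Sham (median log2 ratio -1.04 against 0.02), and at D7, 6 of 14 were higher and 1 lower (0.92 against 0.05). Over all genes 11.2% were higher and 10.2% lower at D2, and 7.1% and 6.13% at D7. Apln, the ligand of the apelin receptor, was 21.0, 105 and 68.5. Esm1, an endothelial proteoglycan of tip cells, was 74.2, 5.57 and 42.7, and Unc5b, a guidance receptor, 19.4, 3.48 and 39.3. Mcam, an adhesion molecule of the Ig family, was 64.6 in Sham and 256 in D7.

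The lipase list of 18 genes was followed because ANGPTL4 acts on lipoprotein lipase. Lpl itself was 572, 74.3 and 97.4 in fibroblast-like cells and 174, 25.1 and 40.4 in blood endothelial-like cells, lower after injury where Angptl4 was higher in the first class and lower in the second. Gpihbp1, which anchors the lipase on capillary endothelium, was 825, 318 and 284, and Pparg 366, 96.1 and 117 in blood endothelial-like cells, alongside the smaller share of capillary-like cells. Hif1a was higher in both classes, at 85.6, 372 and 374 in fibroblast-like cells and 89.3, 318 and 320 in blood endothelial-like cells. Monocyte or macrophage-like cells had Lpl at 39.8, 22.4 and 131. In fibroblast-like cells 14 of the 18 could be judged, with 1 higher and 3 lower at D2 (median 0.27 against -0.02) and 2 higher and 2 lower at D7 (-0.20 against -0.07). Over all genes 12.4% were higher and 13.7% lower at D2, while D7 had 6.39% higher and 8.12% lower.

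Of the 7 other angiopoietin-like genes and receptors, Angptl7 was 16.2 in Sham fibroblast-like cells, 0 in D2 and 0.664 in D7. Sdc4, a syndecan listed as a binding partner, was 91.5, 238 and 171 there.

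Likeness of pattern was measured as Pearson's r of log2 levels over 27 class-by-library sums from 11 classes, which share libraries and cells and so are not independent. Tie1 was most like Dipk2b, Sox18 and Pkn3 (each r = 0.996 to 0.997), and Tek most like Npr1 (0.977), Ramp2 (0.969) and Cyb561 (0.958). Tek and Tie1 had r = 0.90 with each other. Angpt2 was most like Gja4 (0.933), Arhgef7 (0.918) and Rbpms (0.908), and Angpt1 most like Pde5a (0.864), Dzip1 (0.859) and Smim1 (0.847). Angptl2 was most like Postn (0.977), Scarf2 (0.955) and Irak1bp1 (0.951), Angptl4 most like Npdc1 (0.965), Grb10 (0.963) and Serpinh1 (0.959), and Angptl1 most like Wdr66 (0.906), Prr16 (0.902) and Bhlhe41 (0.897). Angpt1 and Angpt2 had r = 0.15 with each other, and Angpt1 had r = 0.07 with Tek.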

How the data were processed

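The 3 deposited matrices hold raw UMI counts per gene and barcode (whole numbers, not normalized). Per the file headers they were written by Cell Ranger 7.1.0; per the submitters' processing notes Cell Ranger 7.2.0, Seurat 5.0.1 and mm10 were used. Whether counting used the strand is not given in the sources used here.

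Barcodes needed 300 genes, 500 UMIs and a mitochondrial share of 15% or less, and those with a Scrublet score above 0.25 were removed as doublets in every library (122, 485 and 359), since the automatic threshold called none in Sham. Cells were clustered with scanpy 1.11.5 (2000 variable genes without the 7 genes and the listed partners, 30 principal components, Leiden resolution 1, 30 clusters). Clusters were named from markers, at least 3 of them detected and a marker score of at least 1, with score limits and some reading genes set after the clusters were seen; 26 clusters were named. Fibroblast-like, endothelial-like and mural-like cells were clustered again. Different subclusters hold most fibroblast-like cells in Sham and at D7, and 4.53%, 9.82% and 12.7% of fibroblast-like cells lay in subclusters led by genes of other cells.

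Class sums were scaled to 1000000 UMIs (CPM), each class in each library on its own. Intervals are exact Poisson (levels), exact conditional binomial (ratios) and Clopper-Pearson (shares), at 95%. Ratios were taken where both libraries had at least 50 cells in a class, or 20 in a subcluster. The size rule and intervals were run on simulated Poisson counts with known folds. That is the model the intervals assume, with no spread between cells or mice, so the run cannot show how they behave on real counts. No test between groups was made because each group is 1 library of pooled mice. From each list at most 4 genes per class and pair were named, by largest ratio, beside Ptprb, Svep1, Lpl and Gpihbp1; likeness used the 3 highest correlations of log2 (CPM + 10) among genes reaching 20 CPM. The 7 genes, markers and lists were chosen with earlier results of these data known. Positions are from GENCODE on GRCm38 (mm10).
Alternatives changed the scaling, cell filters, doublet removal, resolution, class assignment, thinning depth, free-RNA handling and the level filter.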

Additional observations from a re-analysis of the deposited data

How the results depend on the processing

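No paired analysis was possible because each group is 1 library. Over 14 main ratios, 114 of 118 values under other settings kept their direction and 2, both for Tek, moved by over 1.5 times. Averaging each cell's rate gave fibroblast-like ratios to Sham of 0.853 (Angpt1, D7), 0.169 and 0.184 (Tek, D2 and D7), 0.837 and 3.18 (Angptl1, D2 and D7), and 1.19 and 2.43 (Angptl2, D2 and D7). With median-of-ratios scaling the D7 ratios were 0.659 for Angpt1, 4.31 for Angptl1 and 2.56 for Angptl4. That scaling shifted the median gene by over 0.1 on the log2 scale for D7 over Sham in lymphatic endothelial-like cells (0.12), D7 over D2 in fibroblast-like cells (-0.11), D2 over Sham in T, NK and innate lymphoid-like cells (0.13), D7 over Sham in monocyte or macrophage-like cells (-0.14), and D2 and D7 over Sham in unnamed cells (0.30 and 0.19). At Leiden resolution 2 the D7 ratios were 0.571 for Angpt1 and 0.0828 for Tek. Without the shallow fibroblast cluster, an alternative chosen after seeing the data, they were 0.568 and 0.0804. With no filter on level, genes at least 2-fold apart at D7 numbered 2134 in fibroblast-like cells (1317 with it) and 2096 in blood endothelial-like cells (1247 with it), through more genes tested. The 4 that turned were D2 ratios near 1: Angptl2 and Angptl1 when cells were averaged, and Angptl1 with median-of-ratios scaling (0.984) and at resolution 2 (0.990). All 77 values for the 11 other class ratios kept their direction; Angpt1 in mural-like cells was the one to move by over 1.5 times, to 0.731 when cells were averaged. Strict cell filters, kept doublets, classes per cell, subtraction of free RNA and removal of the 4 mixed fibroblast subclusters (also chosen after seeing the data) moved no main ratio beyond its counting interval. Cell number limits the D2 library, with 16 mural-like, 94 blood endothelial-like and 112 fibroblast-like cells.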
